A study of Mus musculus with 8 samples.

Results

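Genes of glycolysis and glycogen metabolism were examined in quadriceps muscle of mice given Folfiri. The set is 36 gene symbols, from the glucose transporters to the enzymes of lactate and glycogen, chosen by name, and 34 of them have a row among the 12896 genes of the deposited count table. Pgam1 was not analysed here. Pkm2 is listed under its current symbol Pkm, and its values are given beside the set without being counted in it.

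The study asked whether chemotherapy used for colorectal tumors acts on skeletal muscle of healthy animals, and sequenced poly(A) RNA of the quadriceps. The treated group was 4 male CD2F1 mice given Folfiri by intraperitoneal injection, a combination of 30 mg/kg 5-fluorouracil (an antimetabolite), 90 mg/kg leucovorin (a folate given with it) and 24 mg/kg CPT-11 (irinotecan, a topoisomerase inhibitor), dosed 2 times a week for up to 5 weeks from 8 weeks of age. The control group was 4 male CD2F1 mice of the same age given Vehicle only. The mice carried no tumor, and each library comes from 1 animal. Whole muscle was used, so a lower level can mean fewer fibres of a type or less RNA per fibre, and these cannot be told apart.

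Skeletal muscle takes up glucose through membrane transporters, traps it by phosphorylation and either stores it as glycogen or breaks it down to pyruvate and lactate. Glycogen is made by glycogen synthase and a branching enzyme on a glycogenin core, and is broken down by phosphorylase, which phosphorylase kinase switches on. Fast glycolytic fibres, which make up most of the mouse quadriceps, use this pathway for short bursts of work, while slow and oxidative fibres use more lactate as a fuel.

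The libraries held 11921092 to 21056818 reads assigned to genes in Folfiri and 8505985 to 16303015 in Vehicle. Levels are in CPM, reads relative to the size of the library after TMM scaling, which corrects that size for differences in composition, and the treatments were compared over the 12883 genes with at least 40 reads in all. Skeletal muscle markers summed to between 130554 and 222430 CPM in Folfiri libraries and between 152078 and 228235 CPM in Vehicle libraries. The Folfiri 1 and Vehicle 2 libraries stood apart for these genes: 18 of the 34 were lowest of the 8 libraries in Folfiri 1 and 11 in Vehicle 2, which was also the highest for 8.

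None of the 34 genes differed between Folfiri and Vehicle after adjustment over all genes (smallest adjusted p = 0.505, from the quasi-likelihood test of edgeR, which gives every fold change, SE, the standard error, and p below), where 0.00776% of all tested genes were called. The same count of 0 came from DESeq2, limma voom and the other edgeR tests (exact and likelihood ratio). At an unadjusted p under 0.05, 1 gene was higher in Folfiri (Ppp1r3c, 2.94% of the set, against 5.48% of all tested genes) and 2 were lower (Hk2 and Phkb, 5.88% of the set, against 4.02% of all genes). These shares lie near the background, and they are not a result about the set. The groups did not overlap for 1 gene, Hk2, with all Folfiri libraries below all Vehicle libraries, against 2.66% of all genes in that direction, and for 0 genes in the other direction, against 2.87%. With library totals in place of TMM the groups overlapped for Hk2 too. The fitted log2 fold changes of Folfiri over Vehicle ran from -0.63 for Hk2 to 0.72 for Eno1, with 12 above 0 and 22 below, and a median of -0.12 beside 0.01 over all tested genes. Without Folfiri 1 that median was 0.04. With each of the 8 libraries left out in turn, the unadjusted p stayed under 0.05 for Hk2 in 4 cases, for Phkb in 2 (without Folfiri 4 or Vehicle 2) and for Ppp1r3c in 2 (without Folfiri 4 or Vehicle 1).

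The bases before the transcription start of the 3 genes with an unadjusted p under 0.05 are shown, since these genes had the smallest p-values of the set. Each run is the 250 bases upstream of a start annotated by RefSeq on GRCm38.p6, read 5′ to 3′ on the strand of the gene, for Hk2 at chr6:82774455-82774704, minus strand, for Phkb at chr8:85840738-85840987, plus strand, and for Ppp1r3c at chr19:36736605-36736854, minus strand. Capitals mark ACGTG, the core letters bound by hypoxia-inducible factors and part of the E-box CACGTG, and GGGCGG, the GC box letters bound by Sp1, each on either strand.
Hk2: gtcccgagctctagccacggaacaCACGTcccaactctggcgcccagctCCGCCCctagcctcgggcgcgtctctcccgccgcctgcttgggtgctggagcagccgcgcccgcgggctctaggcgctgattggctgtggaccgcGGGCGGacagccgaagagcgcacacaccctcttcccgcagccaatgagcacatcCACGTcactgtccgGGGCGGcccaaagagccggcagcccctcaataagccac
Phkb: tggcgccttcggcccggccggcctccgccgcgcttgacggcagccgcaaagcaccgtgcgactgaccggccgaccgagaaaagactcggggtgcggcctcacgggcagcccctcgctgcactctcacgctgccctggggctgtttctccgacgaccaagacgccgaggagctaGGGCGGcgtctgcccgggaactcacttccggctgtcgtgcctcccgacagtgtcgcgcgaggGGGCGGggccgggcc
Ppp1r3c: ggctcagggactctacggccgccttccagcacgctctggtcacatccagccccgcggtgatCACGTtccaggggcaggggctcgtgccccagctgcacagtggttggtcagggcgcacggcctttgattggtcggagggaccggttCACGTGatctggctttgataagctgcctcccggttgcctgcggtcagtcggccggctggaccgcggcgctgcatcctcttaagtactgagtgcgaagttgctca
The Hk2 and Ppp1r3c windows held ACGTG, and that of Ppp1r3c also held the full CACGTG. The Hk2 and Phkb windows held GGGCGG. Promoter entries were found for 32 of the 34 genes, and 15 of these genes (46.9%) had ACGTG in at least 1 window, against 18.5% of all 27025 genes in the same table. CACGTG was found for 6 of the 32 genes (18.8%), against 6.86% of all genes, and GGGCGG for 20 (62.5%), against 35.4%. Some genes have more than 1 window. Counted by window, 39.1% of the 46 windows of the set had ACGTG, against 16.6% of all 32851. For CACGTG it was 13% against 6.02%, and for GGGCGG 52.2% against 32.7%. The comparison was not limited to genes expressed in muscle or matched for base composition. A match is a match of letters only.

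Levels spanned more than 3 orders of magnitude between genes when set per kilobase of gene length. Averaged over the 8 libraries, the aldolase gene Aldoa came first at 5831 CPM per kilobase, followed by the muscle enolase Eno3 at 4329, the muscle glycogen phosphorylase Pygm at 3453, Gapdh at 2903 and the muscle phosphoglycerate mutase Pgam2 at 2088. The muscle phosphofructokinase Pfkm, which commits sugar to glycolysis, stood at 1483 CPM per kilobase. Towards the other end were widely expressed isoforms: Eno1 at 11.3, the glucose transporter gene Slc2a1 at 2.97 and the hexokinase gene Hk1 at 2.33 CPM per kilobase. The lowest was the phosphoglucomutase gene that the table calls Pgm1, at 1.36 CPM per kilobase. Summed over the 34 genes, Folfiri libraries 1 to 4 held 33309, 47533, 59420 and 61275 CPM, and Vehicle libraries 1 to 4 held 59729, 38607, 58796 and 51756 CPM. The groups overlapped throughout, with Folfiri 1 the lowest and Vehicle 2 the next.

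**Figure D1:**
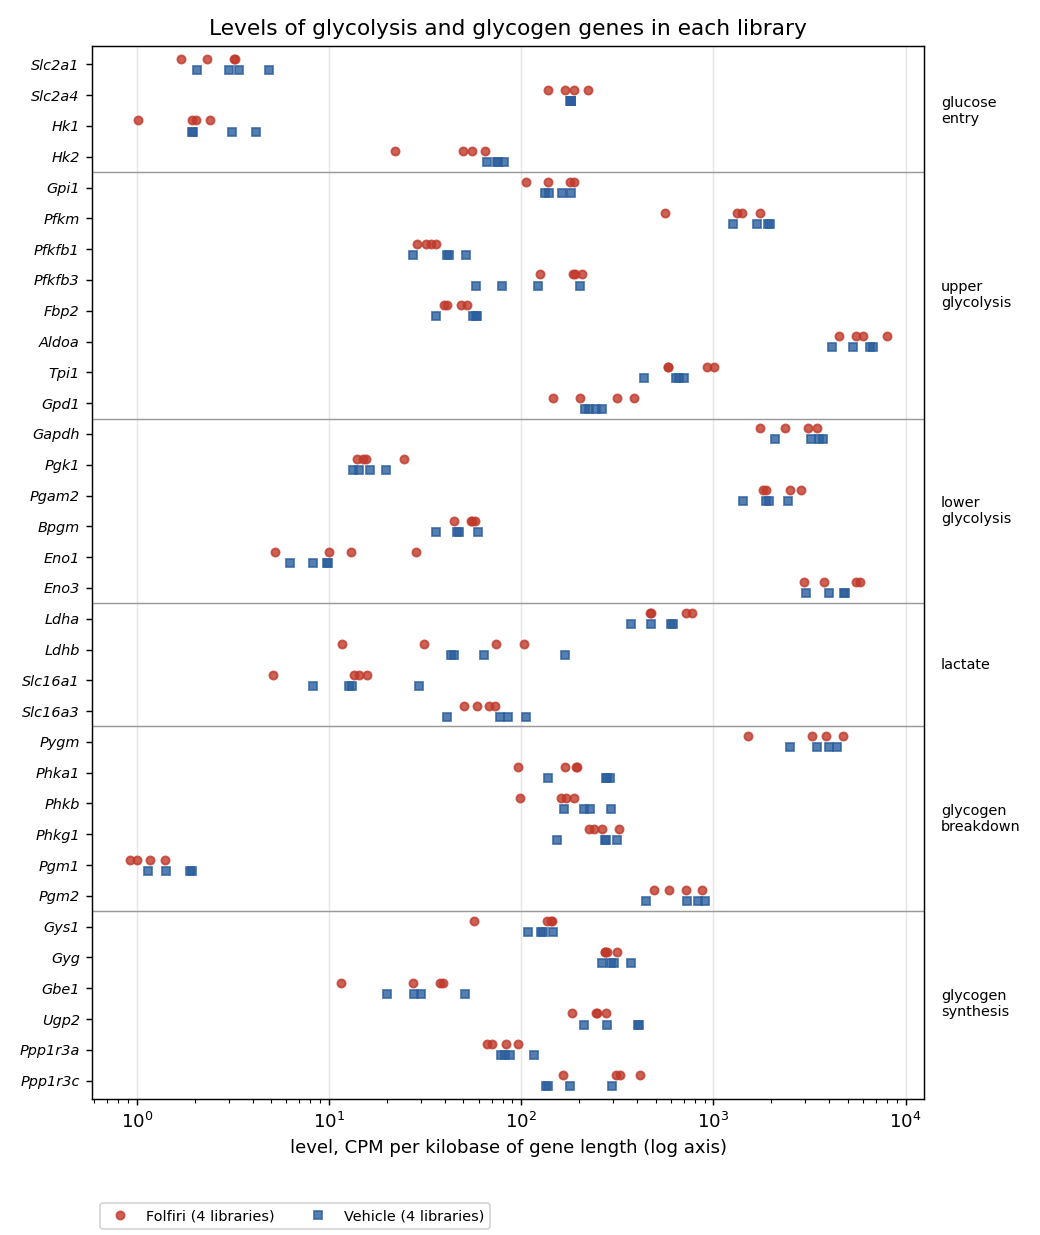
Level of each of the 34 genes in CPM per kilobase of gene length (log axis), grouped by role, with 1 point per library: circles for the 4 Folfiri libraries, squares for the 4 Vehicle libraries just under them. Aldoa, Eno3 and Pygm are at the right, Hk1 and Pgm1 at the left, and Hk2 is the gene whose groups do not overlap.

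Pgk1, the phosphoglycerate kinase between Gapdh and Pgam2 in the pathway, had a level far under those of its neighbours. It stood at 16.6 CPM per kilobase over the 8 libraries, beside 2903 for Gapdh and 2088 for Pgam2. The files' genome build held 2 other loci that match at least 50% of the Pgk1 transcript at 90% identity or more, and 2 for Eno1, against 25 for Gapdh and 0 for the other 31 genes. Reads that fall on such copies may be counted elsewhere or not at all, so the levels of Pgk1, Eno1 and Gapdh are uncertain, and the part of the copies in them was not tested.

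Genes of glucose entry and phosphorylation had negative fitted changes in all 4 cases. Hk2, the hexokinase of insulin-sensitive muscle (chromosome 6 of mm9, 82675021 to 82724448), had 121, 274, 305 and 359 CPM in Folfiri libraries 1 to 4, against 364, 449, 411 and 416 CPM in Vehicle libraries 1 to 4. The Folfiri libraries all lay below the Vehicle libraries, by a narrow margin between Folfiri 4 and Vehicle 1, and Folfiri 1 lay far below the rest of its group. Its means were 265 ± 102 CPM in Folfiri and 410.1 ± 35.1 CPM in Vehicle (SD, n = 4 each), a log2 fold change of -0.63 (SE 0.27, edgeR unadjusted p = 0.0395 and adjusted p = 0.505). Without both Folfiri 1 and Vehicle 2 the value was -0.34 and the unadjusted p was above 0.05. Groups that do not overlap stay so when libraries are left out.

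Slc2a4, the insulin-responsive transporter GLUT4 and the most abundant gene of this step, had 388, 475, 630.0 and 530.3 CPM in Folfiri libraries 1 to 4, against 511, 512, 507 and 514 CPM in Vehicle libraries. The Vehicle libraries were nearly equal and lay inside the spread of the Folfiri libraries. Its means were 506 ± 102 CPM in Folfiri and 511 ± 2.91 CPM in Vehicle (SD, n = 4 each), with a log2 fold change of -0.02 (SE 0.18, edgeR adjusted p = 0.985). Hk1, the hexokinase of most tissues, averaged 8.32 ± 2.65 CPM in Folfiri and 12.6 ± 4.85 CPM in Vehicle (SD, n = 4 each), with its lowest value in Folfiri 1 and its highest in Vehicle 2. Slc2a1, the basal transporter GLUT1, averaged 6.73 ± 1.91 and 8.56 ± 3.01 CPM in Folfiri and Vehicle, with the same libraries at its extremes.

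**Figure D2:**
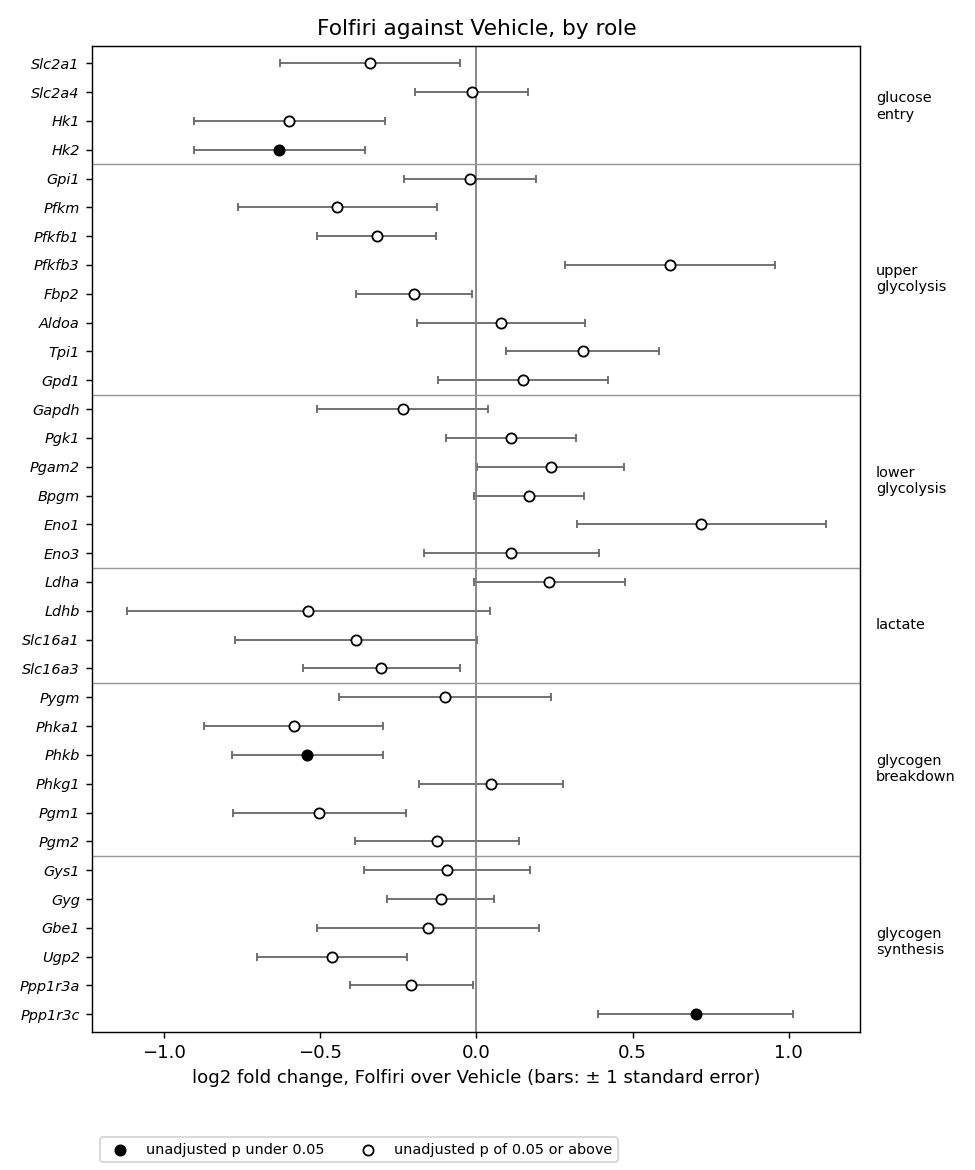
Log2 fold change of Folfiri over Vehicle for each gene, with bars of 1 standard error from edgeR's quasi-likelihood fit, grouped by role. Filled points (Hk2, Phkb and Ppp1r3c) have an unadjusted p under 0.05, and no gene had an adjusted p under 0.505.

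In upper glycolysis 4 of 8 genes had positive and 4 negative fitted changes, with a median of 0.03. Aldoa, which splits fructose bisphosphate, had 8187, 10025, 14512 and 10994 CPM in Folfiri libraries 1 to 4, against 11843, 7526, 12329 and 9675 CPM in Vehicle libraries. The groups overlapped fully, with Vehicle 2 lowest and Folfiri 3 highest. Its log2 fold change was 0.08 (SE 0.27, edgeR adjusted p = 0.939), and it was -0.05 without Vehicle 2. Pfkm had 1715 CPM in Folfiri 1 and 4022 to 5305 CPM in the other Folfiri libraries, against 3848 to 6036 CPM in Vehicle libraries. Tpi1, the triose phosphate isomerase, averaged 1237 ± 360.4 CPM in Folfiri and 977 ± 190.1 CPM in Vehicle (SD, n = 4 each).

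Pfkfb3 and Pfkfb1 encode enzymes that make and remove fructose 2,6-bisphosphate, the activator of phosphofructokinase. Pfkfb3, an inducible form, had 1007, 1094, 665 and 984 CPM in Folfiri libraries 1 to 4, against 419, 309, 1070 and 643 CPM in Vehicle libraries. All Folfiri libraries lay above all Vehicle libraries but Vehicle 3, which lay just under Folfiri 2. The log2 fold change was 0.62 (SE 0.34, edgeR unadjusted p = 0.089 and adjusted p = 0.574), and 1.04 without Vehicle 3 (adjusted p = 0.359). Pfkfb1, the form of liver and muscle, averaged 56.7 ± 5.32 CPM in Folfiri and 70.7 ± 17.6 CPM in Vehicle (SD, n = 4 each). The log2 ratio of Pfkfb1 to Pfkfb3 reads, which needs no scaling between libraries, was -4.33, -4.13, -3.49 and -4.15 in Folfiri libraries and -2.22, -2.11, -4.49 and -3.13 in Vehicle libraries. It differed by -1.04 (exact permutation test, two-sided, p = 0.143, adjusted p = 0.557 over 6 ratios), with Vehicle 3 below all Folfiri libraries.

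The other genes of upper glycolysis had fitted changes between -0.20 and 0.15. Gpi1, which turns glucose 6-phosphate into fructose 6-phosphate, averaged 439.9 ± 110.4 CPM in Folfiri and 446 ± 64.7 CPM in Vehicle. Gpd1, which draws triose phosphate towards glycerol, averaged 731 ± 303 and 659 ± 60.4 CPM in Folfiri and Vehicle, and its 4 Vehicle libraries lay inside the Folfiri range. Fbp2, the muscle fructose bisphosphatase that runs the step against phosphofructokinase, averaged 58.8 ± 7.78 CPM in Folfiri and 67.6 ± 14.2 CPM in Vehicle, where Vehicle 2 held 46.5 CPM and the others 72.5 to 75.8 CPM (SD, n = 4 each throughout). Without Vehicle 2 all Folfiri libraries lay below the Vehicle libraries for Fbp2, as for 4.76% of all genes.

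In lower glycolysis 5 of 6 genes had positive fitted changes and 0 had an unadjusted p under 0.05. Eno3, the enolase of muscle, had 4727, 6002, 8861 and 9253 CPM in Folfiri libraries 1 to 4, against 7693, 4844, 7743 and 6422 CPM in Vehicle libraries. The 2 highest and the lowest library were all Folfiri, so the Vehicle libraries lay inside the Folfiri range. Its log2 fold change was 0.11 (SE 0.28, edgeR adjusted p = 0.915) and turned to -0.01 without Vehicle 2. Gapdh, often used as a reference gene, averaged 3989 ± 1133 CPM in Folfiri and 4698 ± 1094 CPM in Vehicle, and ran from 2625 to 5140 CPM within Folfiri alone.

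Pgam2 averaged 2048 ± 451 CPM in Folfiri and 1736 ± 379 CPM in Vehicle, and Bpgm, which makes 2,3-bisphosphoglycerate, 110.0 ± 11.8 and 97.8 ± 19.9 CPM. Pgk1 averaged 31.5 ± 8.89 CPM in Folfiri, with 44.7 CPM in Folfiri 4, and 29.1 ± 5.23 CPM in Vehicle (SD, n = 4 each). Eno1, the widely expressed enolase, had 9.26, 17.7, 23.1 and 50.1 CPM in Folfiri libraries 1 to 4, against 17.4, 17.5, 14.6 and 11.2 CPM in Vehicle libraries. Folfiri held both the lowest and the highest library, and Folfiri 4 alone stood above 23.1 CPM. The fitted change was 0.72 (SE 0.40, edgeR adjusted p = 0.58) and rested on single libraries. Without Folfiri 4 it was 0.14 (adjusted p = 0.887), and without Folfiri 1 it was 0.99 (adjusted p = 0.512), with an unadjusted p under 0.05 and all Folfiri libraries above all Vehicle libraries, as for 4.32% of all genes. Pkm, the pyruvate kinase gene counted outside the set, had 515, 1173, 1432 and 2168 CPM in Folfiri libraries, against 1427, 1010, 2387 and 1944 CPM in Vehicle libraries, with Folfiri 1 and Vehicle 2 the lowest of each group.

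The genes of lactate production and transport differed in how they varied between libraries. Ldha, the lactate dehydrogenase subunit of glycolytic fibres and the most abundant gene of this step, had 903, 911, 1485 and 1384 CPM in Folfiri libraries 1 to 4, against 1183, 723, 1166 and 911 CPM in Vehicle libraries. The groups overlapped, and the log2 fold change was 0.23 (SE 0.24, edgeR adjusted p = 0.777). Ldhb, the subunit of heart and oxidative fibres, had 15.1, 96.2, 135 and 40.7 CPM in Folfiri libraries, against 58.5, 219, 56.1 and 83.4 CPM in Vehicle libraries. It varied widely within both groups, and its log2 fold change of -0.54 (SE 0.58, edgeR adjusted p = 0.785) was 0.12 without Vehicle 2 and 0.46 without both Vehicle 2 and Folfiri 1.

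The order of the 8 libraries for Ldhb was that of the summed slow and oxidative fibre genes. This pattern was picked out after the values were seen. The 10 such genes, among them the myosins Myh7 and Myh2 and the myoglobin gene Mb, summed to 992, 3931, 4297 and 1448 CPM in Folfiri libraries 1 to 4, against 2642, 9701, 2011 and 3301 CPM in Vehicle libraries. From Folfiri 1 at the low end to Vehicle 2 at the high end, all 8 libraries held the same rank in both. Of the 12883 tested genes 4 (0.031%) had that order, and 1 of these, Myh2, belonged to the summed list itself. Mb and Myh2 held most of the sum, with 870 and 68.6 CPM in Folfiri 1 and 3909 and 4091 CPM in Vehicle 2. All genes of the list but Myh2 ran in other orders. Mb was lowest in Folfiri 4, at 724 CPM, and not in Folfiri 1. For Myh7, Vehicle 1 at 26.1 CPM lay below Vehicle 3 at 117 CPM, unlike in the sum. All 10 genes of the list had negative fitted changes (median -0.88), 0 of them with an unadjusted p under 0.05. Vehicle 2 was the highest of the 8 libraries for each of them. In the sums, the other Vehicle libraries, at 2011 to 3301 CPM, lay inside the Folfiri range. For Myl2 the Folfiri mean of 57.3 CPM lay above Vehicle 1, Vehicle 3 and Vehicle 4, of which Vehicle 3 was highest at 38.3 CPM. The negative change of Myl2, and with it the sign shared by the whole list, therefore rested on Vehicle 2. For the other genes of the list the Folfiri mean lay between the lowest and the highest of these Vehicle libraries. Their fitted signs without Vehicle 2 were not tested.

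**Figure D3:**
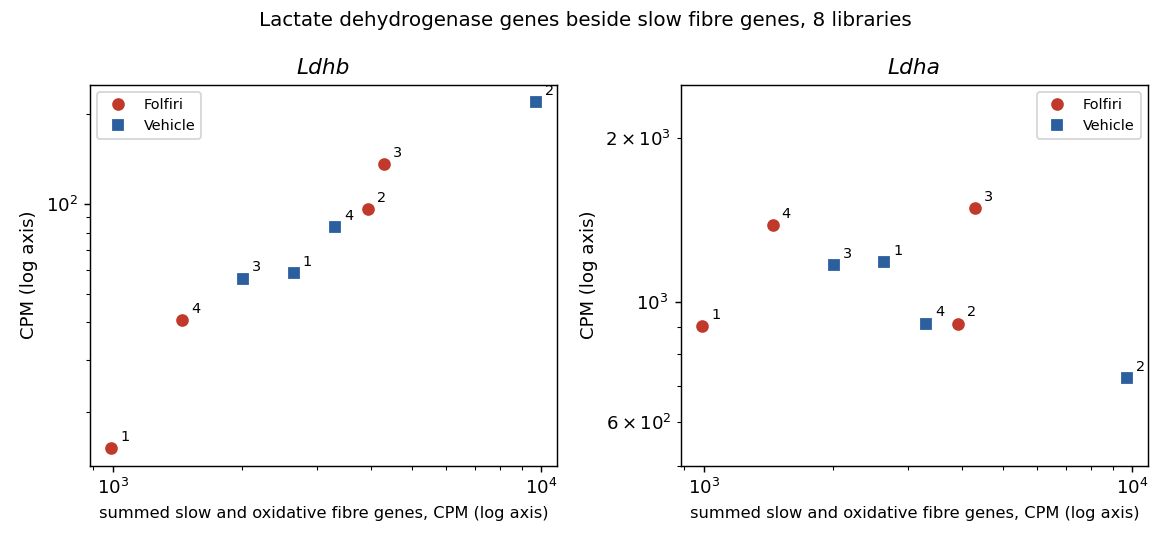
CPM of Ldhb (left panel) and Ldha (right panel) against the summed CPM of 10 slow and oxidative fibre genes, on log axes, with 1 point per library labelled by its number: circles for Folfiri, squares for Vehicle. Ldhb climbs with the sum from Folfiri 1 (15.1 CPM) to Vehicle 2 (219 CPM), while Ldha has its lowest value in Vehicle 2 (723 CPM).

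Vehicle 2 stood at an extreme of both lactate transporters. Slc16a1, the transporter MCT1 of oxidative fibres, had 22.6, 63.6, 69.6 and 59.4 CPM in Folfiri libraries 1 to 4, against 56.5, 129, 36.8 and 58.4 CPM in Vehicle libraries. Slc16a3, the transporter MCT4 of glycolytic fibres, had 129, 152, 189 and 175 CPM in Folfiri libraries, against 200.4, 106, 271 and 219 CPM in Vehicle libraries. Vehicle 2 was the highest of the 8 for Slc16a1 and the lowest for Slc16a3. Without Vehicle 2 all Folfiri libraries lay below the Vehicle libraries for Slc16a3, as for 4.76% of all genes. Its log2 fold change was then -0.51 (edgeR adjusted p = 0.579), against -0.30 with Vehicle 2. The value for Slc16a1 turned to 0.09 without Vehicle 2, against -0.39 with it.

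Vehicle 2 also held the highest sums of fat cell markers. The 10 adipocyte markers, all with reads in every library, summed to between 332 and 824 CPM in Folfiri libraries, against 2152 CPM in Vehicle 2 and between 453 and 1019 CPM in the other Vehicle libraries. Fabp4 alone held 1099 CPM in Vehicle 2. Cfd and Retn were highest in Folfiri 3, at 172 and 32.2 CPM, against 155 and 20.7 CPM in Vehicle 2. The other adipocyte markers were highest in Vehicle 2. The 6 brown adipocyte markers, of which Elovl3 was at 0 in some library, summed to between 257 and 464 CPM in Folfiri. They summed to 847 CPM in Vehicle 2 and between 243 and 355 CPM in the other Vehicle libraries. Outside Vehicle 2 most of each sum was Cox7a1, at 238 to 448 CPM in Folfiri and 192 to 374 CPM in Vehicle. Ucp1 had 0.431 to 1.66 CPM in Folfiri libraries, against 0.615, 251, 19.2 and 1.13 CPM in Vehicle libraries 1 to 4. The part of these cells in the values of Vehicle 2 was not tested. Of 9 macrophage markers 6 were higher in Folfiri at an unadjusted p under 0.05, and their sums ran from 134 to 189.7 CPM in Folfiri and from 71.6 to 121 CPM in Vehicle, with no marker at 0 in any library. Hepatocyte markers summed to 255 CPM in Folfiri 1 and 82.1, 41.6 and 18 CPM in Folfiri 2 to 4, against 1.5 to 49.9 CPM in Vehicle. Of the 10, 9 were higher in Folfiri at an unadjusted p under 0.05 (median log2 fold change 4.91), 0 had an adjusted p under 0.05, and 8 were at 0 in some library. The 8 endothelial markers all had negative fitted changes (median -0.36), 1 of them with an unadjusted p under 0.05, and summed to 206 CPM in Folfiri 1 and 330 to 393 CPM in the other Folfiri libraries, against 314 to 504 CPM in Vehicle. The part of macrophage, liver and endothelial transcripts in the values of the glycolysis and glycogen genes was not tested.

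Glycogen breakdown had 5 of 6 negative fitted changes. Pygm had 4310, 9231, 10889 and 13487 CPM in Folfiri libraries 1 to 4, against 12499, 7075, 11294 and 9779 CPM in Vehicle libraries. Folfiri held both the lowest and the highest library. The log2 fold change was -0.10 (SE 0.34, edgeR adjusted p = 0.939), and 0.14 without Folfiri 1.

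Phosphorylase kinase joins regulatory α and β subunits, a catalytic γ subunit and calmodulin, and its 3 muscle subunit genes had unlike fitted changes. Phkb, the β subunit (chromosome 8 of mm9, 88364901 to 88584541), had 456, 794, 741 and 867 CPM in Folfiri libraries 1 to 4, against 1352, 773, 982 and 1051 CPM in Vehicle libraries. All Folfiri libraries lay below all Vehicle libraries but Vehicle 2, which lay below Folfiri 2 and Folfiri 4. Its means were 714 ± 180.0 CPM in Folfiri and 1040 ± 239 CPM in Vehicle (SD, n = 4 each), a log2 fold change of -0.54 (SE 0.24, edgeR unadjusted p = 0.0448 and adjusted p = 0.513). Phka1, the muscle α subunit, had 589, 1197, 1031 and 1182 CPM in Folfiri libraries, against 1770, 842, 1709 and 1678 CPM in Vehicle libraries. The other 3 Vehicle libraries stood close together and above all Folfiri libraries, and Vehicle 2 stood far below them. The log2 fold change was -0.58 (SE 0.29, edgeR unadjusted p = 0.0639 and adjusted p = 0.549), and -0.78 without Vehicle 2 (adjusted p = 0.481).

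Phkg1, the catalytic γ subunit of muscle, had 532, 623, 562 and 758 CPM in Folfiri libraries 1 to 4, against 650.0, 363, 740.2 and 642 CPM in Vehicle libraries, a log2 fold change of 0.05 (SE 0.23, edgeR adjusted p = 0.959). The ratio of subunits within a library was looked at after these values were seen, so it carries no test. Reads of Phka1 per read of Phkg1 were 1.11, 1.92, 1.83 and 1.56 in Folfiri libraries, against 2.72, 2.32, 2.31 and 2.61 in Vehicle libraries. Reads of Phkb per read of Phkg1 were 0.857, 1.27, 1.32 and 1.14 in Folfiri libraries, against 2.08, 2.13, 1.33 and 1.64 in Vehicle libraries. In both ratios the Folfiri libraries all lay below the Vehicle libraries, Vehicle 2 included, although Folfiri 3 and Vehicle 3 nearly met in the second. The ratio of Phka1 to Phkb overlapped between the groups, from 1.29 to 1.51 in Folfiri and from 1.09 to 1.74 in Vehicle.

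**Figure D4:**
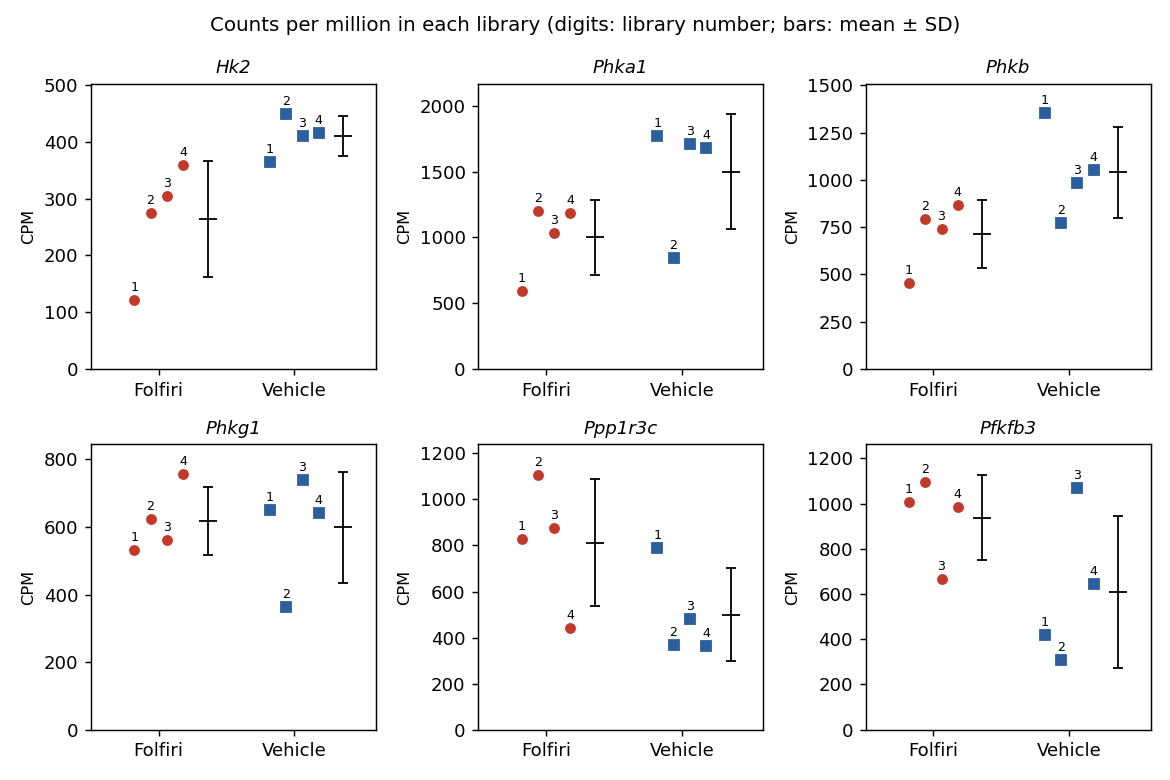
CPM in each library for 6 genes (Folfiri left, Vehicle right, digits give the library number, black bars the mean ± SD of 4 libraries, axes from 0). Hk2 is lower in every Folfiri library, Phka1 and Phkb are lower in Folfiri but for Vehicle 2, Phkg1 overlaps, and Ppp1r3c and Pfkfb3 are mostly higher in Folfiri, each with 1 high Vehicle library (Vehicle 1 and Vehicle 3).

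The phosphoglucomutases join glycogen and glycolysis. The gene the table calls Pgm2 (chromosome 4) is the abundant muscle form that RefSeq now calls Pgm1, and it averaged 1558 ± 388 CPM in Folfiri and 1700 ± 473 CPM in Vehicle. The gene the table calls Pgm1 (chromosome 5) is now Pgm2 and had only 19 to 70 reads in a library, with 2.44 ± 0.454 CPM in Folfiri and 3.46 ± 0.826 CPM in Vehicle (SD, n = 4 each).

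Among the genes of glycogen synthesis and its phosphatase, 5 of 6 had negative fitted changes, and that of Ppp1r3c was positive. Ppp1r3c encodes PTG, which brings protein phosphatase 1 to glycogen and so favours its synthesis (chromosome 19 of mm9, 36806221 to 36811094). It had 828, 1107, 874 and 442 CPM in Folfiri libraries 1 to 4, against 790.4, 368, 479.6 and 361 CPM in Vehicle libraries. The top 3 libraries were Folfiri, while Folfiri 4 lay below Vehicle 1 and Vehicle 3. Its means were 813 ± 276 CPM in Folfiri and 499.7 ± 201 CPM in Vehicle (SD, n = 4 each), a log2 fold change of 0.70 (SE 0.31, edgeR unadjusted p = 0.0434 and adjusted p = 0.512). Without Folfiri 4 all Folfiri libraries lay above the Vehicle libraries, as for 4.92% of all genes. The smallest and largest log2 fold changes with 1 library left out were 0.52 without Folfiri 2 and 1.01 without Vehicle 1. Ppp1r3a, the glycogen-targeting subunit particular to striated muscle, averaged 562 ± 94.2 CPM in Folfiri and 649 ± 123 CPM in Vehicle.

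Per length the most abundant gene of glycogen synthesis was Gyg, the glycogenin on which a new particle is started. It had 468, 544, 482 and 467 CPM in Folfiri libraries 1 to 4, against 644, 523, 501 and 455 CPM in Vehicle libraries, with the groups overlapping and a log2 fold change of -0.11 (SE 0.17, edgeR adjusted p = 0.849). Ugp2, which makes the UDP-glucose used by the synthase, had 759, 852, 771 and 572 CPM in Folfiri, against 1276, 1262, 661 and 865 CPM in Vehicle, so that Vehicle 3 alone kept the Folfiri libraries from lying below all Vehicle libraries. Gys1, the muscle glycogen synthase, had 209 CPM in Folfiri 1 and 500.1 to 531 CPM in the other Folfiri libraries, against 399 to 541 CPM in Vehicle libraries. Without Folfiri 1 its fitted change was 0.14, against -0.09 with it. Gbe1, the branching enzyme, averaged 86.5 ± 37.9 CPM in Folfiri and 96.3 ± 39.9 CPM in Vehicle (SD, n = 4 each), with 34.7 CPM in Folfiri 1 and 153 CPM in Vehicle 2.

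**Figure D5:**
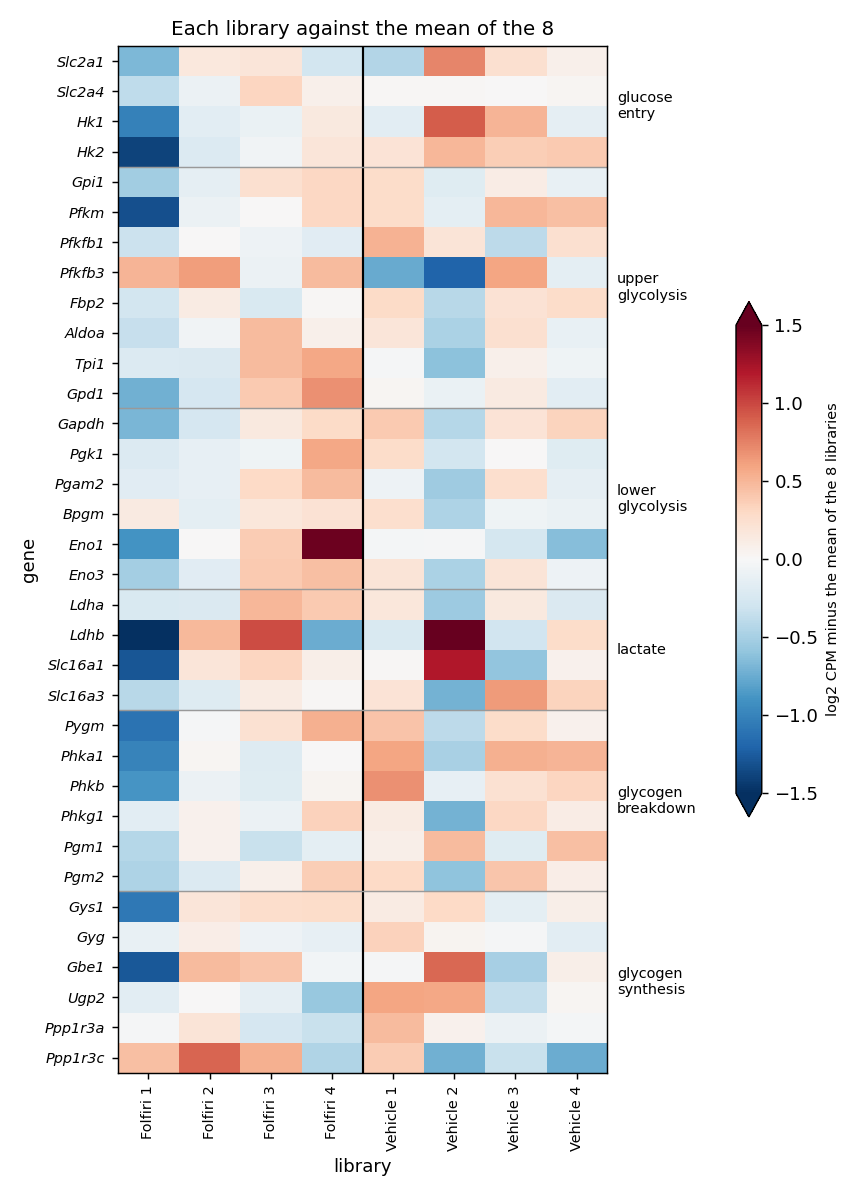
Log2 CPM of each gene in each library minus the mean of the 8 libraries, with Folfiri libraries left of the black line and Vehicle libraries right of it, genes grouped by role. Folfiri 1 is blue for most genes, and Vehicle 2 is red for Hk1, Ldhb, Slc16a1 and Gbe1 and blue for most abundant glycolytic enzymes.

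In each group 1 library stood apart from the rest of its group. The median log2 deviation of the 34 genes from the Vehicle mean was -0.53 in Folfiri 1 and between -0.09 and 0.08 in the other Folfiri libraries, against -0.30 in Vehicle 2 and between -0.02 and 0.20 in the other Vehicle libraries. Of the 19 genes above 500 CPM on average, 8 were lowest in Folfiri 1, 7 in Vehicle 2 and 4 in another library. With Vehicle 2 left out, all Folfiri libraries lay below all Vehicle libraries for 5 genes (Hk2, Fbp2, Slc16a3, Phka1 and Phkb), 14.7% of the set against 4.76% of all genes. With Vehicle 3 left out it was 4 genes (Hk2, Pfkfb1, the table's Pgm1 and Ugp2), 11.8% against 4.67%. Hk2 was in both, as it must be, since its groups did not overlap with all 8 libraries in. These sets were read after the values were seen.

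Gene length moved with the fitted changes. The 12 genes under 2000 bases had a median log2 fold change of 0.10 and the 22 longer ones -0.18, while over all tested genes the medians were 0.11 and -0.03. Spearman's correlation of fold change with length was -0.39 over the 34 genes and -0.22 over all 12883 (across genes, which are not independent replicates). Among the phosphorylase kinase genes, Phka1 and Phkb are 6115 and 4617 bases long in the table and Phkg1 is 2360. The part of length in these differences was not tested.

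The other 5 isoform ratios that could be formed gave an exact permutation p above 0.05. The log2 ratio of Ldha to Ldhb averaged 4.42 ± 1.28 in Folfiri and 3.47 ± 1.24 in Vehicle (SD, n = 4 each, exact p = 0.343), a difference of 0.95. That of Eno3 to Eno1 differed by -0.40 (exact p = 0.371), Slc2a4 to Slc2a1 by 0.29 (exact p = 0.343), Hk2 to Hk1 by -0.14 (exact p = 0.571) and Slc16a3 to Slc16a1 by 0.11 (exact p = 0.914). The smallest p this design allows is 0.0286, all adjusted p-values over the 6 ratios were 0.557 or higher, and the planned ratio of Pgam2 to Pgam1 was not formed.

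Further genes of the pathway gave 0 calls at an adjusted p under 0.05. Of 25 other transporters and glycolytic or gluconeogenic genes, 2 had a higher and 2 a lower level with an unadjusted p under 0.05. Over all tested genes 5.48% were higher and 4.02% lower at that threshold. G6pc3, the widely expressed glucose 6-phosphatase, averaged 48.5 ± 6.24 CPM in Folfiri and 35.4 ± 5.01 CPM in Vehicle (SD, n = 4 each). Pck1, the gluconeogenic enzyme of liver and fat, had 1.69 to 18.3 CPM in Folfiri libraries, against 2.94, 371, 86.4 and 4.10 CPM in Vehicle libraries 1 to 4. The groups overlapped, and the high values were those of Vehicle 2 and Vehicle 3, the libraries with the highest adipocyte marker sums. The part of fat cells in these values was not tested.

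Of 24 other glycogen genes 2 were higher and 1 lower at that threshold, against the same 5.48% and 4.02% of all genes. Stbd1, which binds glycogen, averaged 88.1 ± 18.8 CPM in Folfiri and 60.1 ± 17.6 CPM in Vehicle, and Ppp1r3f, another phosphatase targeting subunit, 5.88 ± 2.41 and 3.76 ± 0.698 CPM. Gsk3b, a kinase that switches glycogen synthase off, averaged 86.1 ± 7.75 CPM in Folfiri and 112 ± 17.9 CPM in Vehicle (SD, n = 4 each).

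Of 19 regulators of glucose use 1 was higher and 1 lower by the same cut, which 5.48% and 4.02% of all genes passed. The groups overlapped for neither. Over all genes, 2.87% had every Folfiri library above and 2.66% had every Folfiri library below. With 1 gene in each direction, these counts are not a result about the regulators. Arrdc4, an arrestin relative of Txnip that restrains glucose uptake, had 30.5, 19.6, 16.0 and 16.5 CPM in Folfiri libraries 1 to 4, against 9.02, 7.18, 13.6 and 13.3 CPM in Vehicle libraries. Its log2 fold change was 0.94 (SE 0.26, edgeR unadjusted p = 0.00379 and adjusted p = 0.334). Arnt, the partner of hypoxia-inducible factors, had 45.6, 56.0, 45.6 and 56.9 CPM in Folfiri libraries, against 66.8, 62.3, 76.9 and 70.7 CPM in Vehicle libraries, a log2 fold change of -0.44 (SE 0.15, edgeR adjusted p = 0.434). All Folfiri libraries lay above the Vehicle libraries for Arrdc4 and below them for Arnt.

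Fast glycolytic fibre genes gave 1 of 10 higher at an unadjusted p under 0.05, against 5.48% of all genes. Their median fitted change was -0.12. Mylpf, the fast regulatory myosin light chain, averaged 14282 ± 3819 CPM in Folfiri and 8793 ± 2210 CPM in Vehicle (SD, n = 4 each). The list summed to 119757, 141475, 171896 and 226257 CPM in Folfiri libraries 1 to 4, against 197060, 124182, 240242 and 187659 CPM in Vehicle libraries. Folfiri 1 and Vehicle 2 were the lowest of the 8 here, as they were for the summed glycolysis and glycogen genes.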

How the data were processed

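RNA-Seq counts of quadriceps from 4 Folfiri-treated and 4 Vehicle-treated mice were used, grouped by the titles of the samples. The authors made libraries from poly(A) RNA, sequenced them on a SOLiD instrument with a strand-specific protocol, mapped the reads to mm9 and to splice junctions with bfast, and counted reads per RefSeq gene with bamutils. The deposited raw counts of reads per gene were used without change, and the authors' scaled values, fold changes, p-values and false discovery rates in the same table were not used. The labels name edgeR with no version. Gene starts in the table count from 0 and were raised by 1.

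With R 4.3.3 and edgeR 4.0.16, counts were scaled by TMM (factors 0.898 to 1.17), genes with at least 40 reads over 8 libraries were kept, and the quasi-likelihood test compared treatments, with Benjamini-Hochberg adjustment over all 12883 genes and 0.05 as threshold. Isoform ratios were compared by exact permutation over 70 arrangements. The scripts were checked on simulated data. Alternatives were the exact and likelihood ratio tests, DESeq2 1.42.0, limma 3.58.1 voom with sample quality weights, a robust fit, RLE factors, library totals, filterByExpr, no filter, a replicate block and leaving out each library. Leaving out Vehicle 2 and Folfiri 1 together was chosen after seeing the data. Copies of transcripts were sought in NCBIM37 with minimap2. Promoter sequences are from RefSeq. Full values are given for genes with an unadjusted p under 0.05, those whose groups do not overlap and the most abundant of each role, and other genes were chosen after their values were seen. The members and lists were chosen with earlier results of these data known.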

Additional observations from a re-analysis of the deposited data

Results flagged for a closer look

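In 5 of 84 groups of 4 libraries looked at, 1 library lay apart from the other 3 by a gap that filled most of the range of the group, and chance gives about 1 in 20 such groups. Phka1 stood at 842 CPM in Vehicle 2, where the rest of Vehicle held 1678 to 1770 CPM. Fbp2 stood at 46.5 CPM in Vehicle 2, against 72.5 to 75.8 CPM in the others, and Ldhb at 219 CPM, against 56.1 to 83.4 CPM. Gys1 stood at 209 CPM in Folfiri 1, against 500.1 to 531 CPM in the other Folfiri libraries. Pgk1 stood at 44.7 CPM in Folfiri 4, against 25.6 to 28.3 CPM in the others.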

How the results depend on the processing

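No gene of the set was called at an adjusted p under 0.05 in any alternative (smallest 0.268, for Hk2 with a replicate block), and 20 of 34 kept the sign of their fitted change in all of them. Over all genes, where edgeR's quasi-likelihood test called 1, the exact test called 86, the likelihood ratio test 101, DESeq2 77, voom 3 and library totals 3, and leaving out 1 library gave 0 to 1 and leaving out Vehicle 2 with Folfiri 1 gave 0. At an unadjusted p under 0.05, DESeq2 had 4 genes of the set lower in Folfiri and library totals 3 higher and 1 lower. Leaving out 1 library gave 0 to 1 higher and 0 to 3 lower. The shares of all genes past that p are not given for these settings, so these counts have no background beside them and are not a result about the set. Groups without overlap numbered 0 with Folfiri below under library totals. With 1 library left out they numbered 0 to 1 above, 0 to 2.94% of the set against 4.32 to 5.55% of all genes. Below, they then numbered 1 to 5, 2.94 to 14.7% of the set against 3.67 to 4.76% of all genes. Without both libraries they numbered 3 above (Eno1, Slc16a1 and Gys1, 8.82% of the set against 7.21% of all genes) and 5 below (14.7% against 7.12%).

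The median change of the set, -0.12, ran from -0.16 to 0.04 with 1 library left out and was 0.06 without both Vehicle 2 and Folfiri 1. With library totals it was -0.0029, where the median of all genes moved to 0.14. The sign turned with voom for Slc2a4 (0.036), Gpi1 (0.067), Gys1 (0.051) and Gbe1 (0.11), and with library totals for Slc2a4 (0.094), Gpi1 (0.093), Pygm (0.0055) and Gyg (0.021). Without both libraries it turned for Slc2a1 (0.069), Slc2a4 (0.10), Gpi1 (0.065), Ldhb (0.46), Slc16a1 (0.35), Pygm (0.0073), Phkg1 (-0.060), Gys1 (0.22) and Gbe1 (0.42). With 1 library left out, values ran from -0.14 to 0.093 for Slc2a4, -0.14 to 0.12 for Gpi1, -0.32 to 0.14 for Pygm, -0.19 to 0.14 for Gys1, -0.34 to 0.16 for Gbe1, -0.092 to 0.20 for Aldoa, -0.032 to 0.27 for Eno3, -0.10 to 0.35 for Gpd1, -0.11 to 0.24 for Pgk1, -0.13 to 0.17 for Phkg1, -1.05 to 0.12 for Ldhb and -0.60 to 0.089 for Slc16a1. The difference in log2 ratio ran from -0.31 to 0.013 for Hk2/Hk1 and from -0.51 to 0.54 for Slc16a3/Slc16a1. The cause was not tested.

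The correlations of same-numbered deviations were 0.32, 0.15, 0.05 and 0.22. Folfiri 1 and Folfiri 2 correlated best with the Vehicle library of their own number, and Folfiri 3 and Folfiri 4 with Vehicle 2 and Vehicle 3. With 4 pairs and no reference for such values, they cannot decide whether the replicate numbers pair the libraries. A replicate block called 3 genes in all, left the same counts of 1 and 2 genes of the set past an unadjusted p of 0.05, and gave a median change of -0.17. For the isoform ratios the block with sign flips gave exact p from 0.25 to 0.875. The lowest count of a gene of the set in any library was 19 reads.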
